A study of Mus musculus with 6 samples.

Results

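The microRNAs described here carry 1 untemplated A at the 3' end. A tag is a distinct read sequence of the small RNA libraries. In this paragraph numbers of tags are distinct sequences, and in later paragraphs they are summed read counts. Members were the tags of 19 to 27 bases that matched none of 1174 mouse Mir hairpins as sequenced but matched one after removal of a single final A. There were 3050 such A-tailed tags with a summed count of 429244, among 3958863 distinct tags with a summed count of 125223946 in the whole series. By library, 1556 were found with DMSO, 1135 with retinoic acid, 1610 with BIO, 1413 with CHIR99021, 1526 with ddH2O and 1600 with vitamin C. Of the 3050 tags, 2761 with 98.11% of the count fell in the start window of a hairpin arm, 260 with 0.3098% lay outside every window, and 29 with 1.582% also matched another RNA class and were set aside. Of these 29, 14 with a count of 6752 were from the miR-1839 hairpin. The 645 members seen in all 6 libraries held 97.83% of the count, and 1060 members were counted once in all libraries together.

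The libraries are small RNA from J1, a mouse embryonic stem cell line adapted to gelatin and grown with 1000 U/ml LIF, a cytokine that keeps such cells undifferentiated. For 24 h the cultures received either retinoic acid at 1 µM, the compounds BIO at 1 µM or CHIR99021 at 3 µM, vitamin C at 50 µg/ml, or a vehicle at 1 µL. DMSO is the control of retinoic acid, BIO and CHIR99021, and ddH2O is the control of vitamin C. Each group is 1 library of 1 cell line, so no p-value was possible, and differences between treatments cannot be told apart from differences between cultures or library preparations. LIF was present in all groups, retinoic acid included. Retinoic acid is a differentiation signal. The kinase GSK3 is the target of both CHIR99021 and BIO, which are inhibitors. Demethylating dioxygenases that act on DNA and histones use vitamin C as a cofactor.

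Mature microRNAs are cut from a hairpin by Drosha and Dicer, and the base that follows the cut is set by the hairpin. Noncanonical poly(A) polymerases can add an A that the hairpin does not encode. GLD2, also called TENT2, adds it to miR-122 in liver, and PAPD5 to miR-21. The related uridylyltransferases TUT4 and TUT7 add U, which is read as T in these files. Addition can change how long a microRNA persists.

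A-tailed sequences of arms with large tailed counts and of arms near the top and the bottom of the range of shares are printed first. Those of miR-101b-3p, called in treatment comparisons, and of let-7c-5p, the most abundant arm of the let-7 list, are added. Shares given below for an arm sum all its 3' ends that could be used, unless a single sequence, end or main tag is named. They were taken from the deposited files, read 5' to 3', and the capital marks the untemplated A.
miR-341-3p: tcggtcgatcggtcggtcggtA
miR-298-5p, longest of 3 ends: ggcagaggagggctgttcttcccA
miR-298-5p, shortest of 3 ends: ggcagaggagggctgttcttcA
miR-140-3p, later start: accacagggtagaaccacggaA
miR-140-3p, earlier start: taccacagggtagaaccacggaA
miR-290a-5p, shorter end: actcaaactatgggggcactttA
miR-290a-5p, longer end: actcaaactatgggggcacttttA
miR-191-5p: caacggaatcccaaaagcagctgA
miR-181d-5p: aacattcattgttgtcggtgggtA
miR-744-5p: tgcggggctagggctaacagcaA
miR-127-3p: tcggatccgtctgagcttggctA
miR-101b-3p: gtacagtactgtgatagctgaaA
let-7c-5p: tgaggtagtaggttgtatggttA
miR-25-3p: cattgcacttgtctcggtctgaA
miR-29a-3p: tagcaccatctgaaatcggttaA
After the part in lower case the hairpin continues with another base than A in each of them, T for both miR-290a-5p tags and G for miR-744-5p.

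The A-tailed share of an arm is the A-tailed count divided by the sum of the A-tailed count and the untailed count at the same 3' ends, taken only at ends where an added A can be told from the hairpin, called eligible ends. In total the share was 4.60% with DMSO (95% Clopper-Pearson interval 4.57 to 4.63), 4.81% with retinoic acid (4.75 to 4.86), 5.16% with BIO (5.13 to 5.20), 4.98% with CHIR99021 (4.94 to 5.02), 5.06% with ddH2O (5.02 to 5.09) and 4.71% with vitamin C (4.68 to 4.75). These intervals cover counting error only, and without molecular identifiers several reads may stem from the same molecule. The 2 vehicle libraries, at 4.60% and 5.06%, thus spanned most of the range of the 6. Eligible tags, tailed and untailed, numbered 627466 with retinoic acid and 1213289 to 1862596 in the other libraries, so counts for single arms are lowest with retinoic acid. There were 39737 to 44581 A-tailed tags per 1000000 microRNA tags of a library. Here and below, microRNA tags are the untailed tags in hairpin arms, eligible or not, so A-tailed tags are not among them.

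The labelled cell type was checked on marker microRNAs. The 12 arms of the marker list from the main microRNA cluster of mouse embryonic stem cells (miR-290a, miR-291a, miR-292a, miR-293, miR-294 and miR-295) made up 166465 per 1000000 microRNA tags with retinoic acid and 269799 to 338847 in the other 5 libraries. The 7 fibroblast arms (miR-143, miR-145a, miR-199a and miR-214) summed to 1473 to 2218 per 1000000, with 1 arm at 0 in a library. The 4 neuron arms (miR-124 and miR-9) summed to 1255 to 5808 per 1000000, highest with vitamin C. Whether these marker levels bear on the tailed shares was not tested.

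Addition of A was compared with that of the other bases, each at its own eligible ends. The median A-tailed share over 104 arms with 500 or more eligible tags in every library, 61 from 5' arms and 43 from 3' arms, was 3.15% to 3.71%. The corresponding median for an added T was 4.08% to 5.11% over 85 arms. Added C had medians of 0.0567% to 0.177% over 100 arms, and added G of 0.0925% to 0.129% over 87 arms. Among 40 arms with enough eligible tags for all 4 bases, the share of A was above that of T in 20 to 26 arms, depending on the library, above that of C in 36 to 38 and above that of G in 39 or 40. A was thus above T in more arms than not in 5 libraries, and in 20 of 40 with ddH2O. Pooled over tags, added G was at 6.05% with retinoic acid, above the pooled A of 4.81%, and at 0.878% to 2.30% in the other libraries. In each library 1 arm, miR-6240-5p, held 70.2% to 95.9% of the G-tailed count, and without it the pooled G was 0.217% to 0.314%.

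Misreading was measured inside the same tags as a background for these shares. A T was read as A at 0.00593% to 0.0104% of bases from base 10 on, a C as A at 0.00436% to 0.0142%, and a G as A at 0.00722% to 0.00891%. Every one of these is below the mean A-tailed share of the lowest of the 104 arms, 0.377%. However, only bases with further bases after them were counted, and single positions had enough counts up to base 21 at most. Misreading at the final base of a tag, where an added A lies, was not measured. In the CHIR99021 library alone, an A at base 22 was read as C in 4.86% of tags, against 0.0217% to 0.0355% in the other 5 libraries. CHIR99021 also had the highest median share of added C, and its miR-25-3p, which ends in A at base 22, had a C-tailed share of 8.33% against 0.0330% or less elsewhere. Whether A-tailed tags of 22 bases were undercounted in that library was not tested.

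Hairpin arms were compared next. Pooled over tags, the A-tailed share of 5' arms was 5.15% to 6.15% and that of 3' arms 3.71% to 4.34%, and the ratio of 5' to 3' was 1.19 to 1.64. The median over arms was closer, 3.19% to 4.37% for 5' arms and 3.05% to 3.51% for 3' arms, with a ratio of 1.001 with vitamin C and 1.02 to 1.29 in the other 5 libraries. Added T showed the opposite order in every library, with pooled shares of 5.52% to 6.88% for 5' arms and 7.54% to 10.8% for 3' arms. The higher pooled share of added A in 5' arms was thus smaller for the typical arm in 5 libraries and larger with retinoic acid. For added T the 3' order also held in the medians, 4.68% to 6.36% against 3.32% to 4.32%.

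The spread between arms was much wider than that between libraries. Mean shares over the 6 libraries ran from 0.377% to 39.4% with a median of 3.59%, and the 90th percentile arm was 10.9-fold above the 10th. The median arm differed 1.52-fold between its highest and its lowest library, 49 of 104 arms differed less than 1.5-fold, and 20 more than 2-fold. Of the 104 arms, 10 had a mean share over 10% and 12 under 1%. The 10 arms with the largest counts held 55.12% of all A-tailed counts.

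The highest share belonged to miR-341-3p, a microRNA of the imprinted Dlk1-Dio3 region, which holds maternally expressed noncoding RNAs. Its main tag lies in an intron of the noncoding gene Rian on chromosome 12, bases 109611556 to 109611576 of the plus strand (GRCm38). The A-tailed share was 35.7% with DMSO, 43.1% with retinoic acid, 50.4% with BIO, 25.7% with CHIR99021, 58.1% with ddH2O and 23.3% with vitamin C. It was thus highest and lowest in the ddH2O library and the vitamin C library compared with it, and 96.2% of its tailed count was the single sequence printed above. That sequence was counted 8844 times in all, its untailed form 11351 times, and the tag with the next hairpin base, a C, 163 times. The same microRNA also carried an added T at 59.0% to 88.6%, more than A in every library.

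The second highest share was that of miR-298-5p, from the minus strand of chromosome 2, bases 174267555 to 174267575, where no other gene is annotated. Its share was 31.5% with DMSO, 36.7% with retinoic acid, 37.3% with BIO, 34.4% with CHIR99021, 32.8% with ddH2O and 33.4% with vitamin C, so it differed 1.18-fold between libraries. Its tailed count was divided over 3 ends, 39.04% on the longest, 21.9% on the middle and 24.1% on the shortest. On the longest end, tailed tags outnumbered untailed ones in all 6 libraries, with a share of 88.4% for retinoic acid (870 tailed and 114 untailed tags) and 52.98% to 65.3% elsewhere. The shortest end had 27.7% with retinoic acid and 28.6% to 33.6% elsewhere, so the high value with retinoic acid was on the longest end and not on the shortest.

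The largest tailed level was that of miR-140-3p, which lies on chromosome 8, bases 107551288 to 107551310 of the plus strand, within an annotated exon of a transcript of Wwp2, a ubiquitin ligase gene. Its A-tailed tags amounted to 4317 to 5530 per 1000000 microRNA tags. The share was 14.1% with DMSO, 15.3% with retinoic acid, 15.1% with BIO, 14.5% with CHIR99021, 14.6% with ddH2O and 13.6% with vitamin C, the narrowest relative range among the 8 arms of highest share with 1000 or more eligible tags in every library. With all untailed tags of the arm in the denominator, eligible or not, its mean share was 6.26% in place of 14.5%. The printed sequence that starts 1 base late carried 52.2% of the tailed count, and the printed one with the earlier start 36.3%.

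From the miR-290 to miR-295 cluster, miR-290a-5p gave the second largest tailed level as a mean over the libraries, at 2654 per 1000000 with retinoic acid and 3410 to 5257 in the other libraries. With retinoic acid miR-298-5p, at 3128, lay above it. It lies on chromosome 7, bases 3218639 to 3218661 of the plus strand. The share was 4.45% with DMSO, 5.87% with retinoic acid, 4.76% with BIO, 5.07% with CHIR99021, 5.06% with ddH2O and 4.86% with vitamin C. Its level was lowest with retinoic acid and its share highest there. On the shorter end printed above the share was 7.62% to 9.39%, and on the longer end 3.16% to 3.92%, so the shorter end had the higher share in every library.

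Several other arms had shares near or over 10%. Values for miR-191-5p, from chromosome 9, bases 108568325 to 108568347, were 7.08% with retinoic acid and 8.18% to 10.9% in the other libraries. On its main sequence, the share was 13.4% to 19.2%, against 2.23% to 3.38% where the untailed part was 1 base longer, so with its main tag alone the mean over libraries rose from 9.24% to 16.7%. For miR-744-5p, in an intron of the kinase gene Map2k4, the share was 12.9% to 15.5%. For miR-127-3p, antisense to an exon of Rtl1, it was 11.4% to 15.9%. Also from the miR-290 to miR-295 cluster, miR-291b-5p and miR-292a-5p had 12.6% to 17.1% and 12.9% to 16.5%, both highest with retinoic acid. With the main tag alone the mean of miR-291b-5p was 6.91% in place of 14.3%. miR-379-5p had 7.81% with retinoic acid and 10.2% to 13.5% in the other libraries, the opposite place for retinoic acid. miR-181d-5p, in an intron of Nanos3, had 8.11% to 10.7%, with a mean of 8.96%, or of 4.02% with the main tag alone. Its printed sequence, whose untailed part is 1 base shorter than the main tag, had 35.15% to 42.7%.

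At the other end, miR-29a-3p had a share of 0.235% to 0.544%, miR-382-3p of 0.319% to 0.599%, miR-25-3p of 0.506% to 0.940% and miR-294-3p of 0.570% to 0.922%. With its main tag alone the mean of miR-382-3p was 0.0231% in place of 0.456%. All 4 are 3' arms, and 2 of them were among the abundant untailed microRNAs, miR-25-3p at 35320 to 49360 and miR-294-3p at 22790 to 29540 untailed tags per 1000000. The added T of miR-29a-3p was 4.48% to 9.91% at its own eligible ends, of which there were only 105 in the shallowest library.

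The 2 microRNAs best known for an added A were looked up whatever their depth. miR-122-5p, a liver microRNA, was at 22.4 to 54.9 untailed tags per 1000000 in 5 libraries and at 1324 with CHIR99021. Its A-tailed share was 15.3% with CHIR99021 (13.8 to 16.8, 341 of 2233 tags), and 0 to 5 tailed tags of 44 to 63 were counted in the other 5 libraries. With vitamin C, 0 of 58 tags were tailed, which allows a share of up to 5.17% (3 counts of the total). For miR-21a-5p the share was 2.95% to 4.46%, with a mean of 3.79%, or of 7.95% with the main tag alone, and 88.6% of its tailed count was on the end with a final C before the A.

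The miR-1839 tags were kept out of all arm values because their untailed part also matches another RNA class. Taken alone, their A-tailed share was 6.92% with DMSO, 8.48% with retinoic acid, 7.49% with BIO, 8.72% with CHIR99021, 6.96% with ddH2O and 7.003% with vitamin C, above the total of each library.

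MicroRNAs that share a seed, bases 2 to 8, which pairs with target RNAs, often differed in A-tailed share. Members of 3 seed families are printed from RefSeq (GRCm38.p6) with the seed in capitals, to show that they differ in sequence outside it.
miR-25-3p: cAUUGCACuugucucggucuga
miR-92a-3p: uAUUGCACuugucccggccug
miR-92b-3p: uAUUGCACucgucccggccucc
miR-290a-5p: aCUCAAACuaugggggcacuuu
miR-292a-5p: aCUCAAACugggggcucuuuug
miR-293-5p: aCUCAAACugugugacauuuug
miR-26a-5p: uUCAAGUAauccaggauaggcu
miR-26b-5p: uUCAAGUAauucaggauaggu
In the first family the mean share over the 6 libraries was 0.641% for miR-25-3p, 3.50% for miR-92a-3p and 7.72% for miR-92b-3p, a 12.1-fold range. In the second it was 5.01% for miR-290a-5p, 14.1% for miR-292a-5p and 1.32% for miR-293-5p, a 10.7-fold range within 1 genomic cluster. In the third it was 8.94% for miR-26a-5p and 2.82% for miR-26b-5p. The ranges of the 6 libraries did not overlap between miR-26a-5p, at 6.83% to 10.1%, and miR-26b-5p, at 2.34% to 3.13%. By contrast, miR-103-3p and miR-107-3p had 3.61% and 3.71%. The 7 let-7 arms of the GAGGUAG seed had mean shares of 3.58% to 9.56%, with let-7b-5p highest and the others at 5.67% or less.

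Groups of microRNAs fixed by cluster or family showed the same mixture. The 16 arms of the whole miR-290 to miR-295 cluster, its hairpins with names in b included, had a summed share of 2.68% to 3.22%. In each library this was below the total. The 11 of these arms with 500 or more eligible tags in every library had mean shares between 0.667% and 14.3%. The 28 arms of miR-17-92 and its paralogs, which promote proliferation, had 1.69% to 2.45%. The 105 arms of the Dlk1-Dio3 region had 4.64% to 6.36%, lowest with retinoic acid. The 20 of these arms with 500 or more eligible tags in every library had mean shares between 0.456% and 39.4%. The miR-182, miR-183 and miR-96 cluster had 8.63% to 10.6%. The miR-200 family, an epithelial group, had 8.58% to 12.5%, with no arm reaching 500 eligible tags in every library. For miR-302 and miR-367 only 1 to 5 A-tailed tags were counted per library, too few to describe. The remaining groups were the let-7 arms with miR-98 at 3.75% to 4.92%, the 11 miR-30 arms at 3.33% to 4.39%, and the miR-26 arms at 4.69% to 6.62%. The miR-181 arms had 6.41% to 8.80%, the miR-15 and miR-16 group 4.75% to 5.81%, and the miR-34 and miR-449 group 2.08% to 2.95%. The miR-10 and miR-196 group had 1.54% to 2.25% and the cluster in an intron of Sfmbt2 2.31% to 2.96%.

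Features outside the rule were then described over all eligible tags. Untailed tags ending in T had an A-tailed share of 3.22% to 3.51%, those ending in A 7.34% to 8.52%, in C 8.40% to 13.7% and in G 6.38% to 9.25%. T was lowest in all 6 libraries. The tags were then limited to the most abundant untailed one of each arm at an eligible end. The median of arms whose tag ended in T was 2.09% (52 arms) and in C 2.31% (7 arms). For G it was 5.14% (12 arms) and for A 5.39% (13 arms). The high pooled value for C was therefore not that of the typical arm. T was lowest in both descriptions, except that in the retinoic acid library the medians were 2.41% for C and 2.54% for T. An untailed part of 18 bases had a share of 0.448% to 1.06%, one of 19 bases 0.801% to 1.91%, one of 20 bases 2.94% to 5.93%, one of 21 bases 8.21% to 9.71%, and one of 22 bases 4.17% to 4.60%. Untailed parts of 18 and 19 bases thus had the lowest shares in every library. Longer parts showed no steady rise, with 5.32% to 6.22% at 23 bases, 2.21% to 2.93% at 24, 3.56% to 7.45% at 25 and 10.2% to 11.6% at 26. Parts of 24 bases were below those of 20 bases in every library. Those of 20 bases were below 22 bases in 4 libraries and above them with BIO (5.93% against 4.51%) and CHIR99021 (4.57% against 4.24%).

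Over all tags, ends 1 base short of the main end of their arm had a share of 9.53% to 11.4%, against 3.55% to 3.88% at the main end. Within arms that order was not general. In 50 arms with 500 or more eligible tags at both ends with DMSO, the shorter end had the higher share in 26 and the lower in 24, and with BIO the numbers were 27 and 16 of 43. With all 6 libraries summed, the shorter end was higher in 66 of 104 arms and lower in 38. The main end held 52.3% of the A-tailed count and the end 1 base short of it 26.8%. Tags starting 1 base late had a share of 11.3% to 13.2%, against 4.34% to 4.89% for the main start. The tags with the late start include the miR-140-3p sequence shown above.

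Tags with AA in place of A were counted as a separate readout that the rule does not use. There were 18.1 to 19.3 AA-tailed tags per 100 A-tailed tags in the 6 libraries. Over all libraries, miR-127-3p had 64.9 per 100, miR-379-5p 45.9, miR-26a-5p 36.9 and miR-298-5p 31.1, so the second A was unevenly distributed over arms while its total was nearly the same in all libraries.

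For the treatments, an arm was called when its share differed at least 1.5-fold between 2 libraries with 500 or more eligible tags in each and the 95% Clopper-Pearson intervals did not overlap. Retinoic acid, BIO and CHIR99021 are set against the same DMSO library, so their calls are not independent of each other. Of the 104 arms above, 32 had their lowest share with DMSO and 3 their highest there. As a background between vehicles, ddH2O against DMSO gave 3 calls among 145 arms, or 2.07%, with a median ratio of 1.06. Of the 145 arms, 1.38% were higher and 0.69% lower. They were miR-101b-3p and miR-341-3p, higher with ddH2O, and miR-143-3p, lower. Divided by that median ratio, 1 was higher and 1 lower.

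With retinoic acid, 6 of 112 arms were called against DMSO, all higher, or 5.36% of arms, and the median ratio was 1.14. The called arms were let-7g-5p at 4.90% against 3.24%, miR-291a-5p at 4.93% against 3.11% and miR-101b-3p at 6.21% against 3.79%. The other three were miR-25-3p at 0.940% against 0.570%, miR-30d-5p at 4.53% against 2.70% and miR-708-5p at 5.82% against 2.82%, the last with 33 A-tailed tags after retinoic acid. Divided by the median ratio of all arms, 5 arms were called, 1 higher and 4 lower, so the one-sidedness of the calls depends on that shift. With ddH2O as the control, 4 were higher and 4 lower, and 2 of the 6 calls were kept.

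The let-7 family, which accumulates as stem cells differentiate, was described as a fixed list. All 7 arms compared had a higher share with retinoic acid than with DMSO, with a median log2 ratio of 0.46 against 0.19 for all 112 arms, of which 77 had a higher share. Of the 7, 1 was called, against 5.36% of all arms. For let-7b-5p the share was 13.6% with retinoic acid and 6.999% to 9.81% in the other 5 libraries. For let-7e-5p it was 7.29% against 5.24% to 5.51%, and for let-7f-5p 4.53% against 3.32% to 3.53%. let-7c-5p had 4.37% against 3.73% to 4.06%. In each of the 7 arms the retinoic acid library lay above the other 5. Of 11 arms of the miR-290 to miR-295 cluster, 10 had a higher share with retinoic acid, with a median log2 ratio of 0.27, and 1 was called, beside the same 77 of 112 and 5.36% over all arms.

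With BIO, 10 of 143 arms were called against DMSO, all higher, or 6.99%, with a median ratio of 1.09. The largest differences were those of miR-181c-5p, at 1.69% against 0.496% on 37 and 13 A-tailed tags, of miR-27a-3p and miR-27b-3p, which share a main tag, at 1.46% against 0.592%, and of miR-296-3p at 8.14% against 3.38%. miR-485-5p had 3.32% against 1.46%, miR-101b-3p 8.16% against 3.79%, and miR-323-3p 1.503% against 0.756%. The other 4 calls were miR-30a-5p, miR-1981-5p, miR-376a-3p and miR-409-3p. With ddH2O as the control, none of 140 arms was called. With CHIR99021, 9 of 126 arms were called, all higher, or 7.14%, with a median ratio of 1.12. They included miR-1193-5p at 3.93% against 1.13% on 21 and 13 tailed tags, miR-181c-5p at 1.36% against 0.496%, and miR-708-5p at 5.31% against 2.82%. With ddH2O as the control, 3 were higher and 3 lower, and 1 of the 9 calls was kept. Divided by the median ratio, 4 arms were higher and 3 lower with CHIR99021, and 8 were higher with BIO. BIO and CHIR99021 inhibit the same kinase and share the DMSO library as control. Side by side, the share of miR-296-3p was 8.14% with BIO, 6.995% with CHIR99021 and 3.38% with DMSO. That of miR-485-5p was 3.32%, 2.98% and 1.46% in the same order, and that of miR-376a-3p 1.68%, 1.80% and 0.987%. In the ddH2O library miR-485-5p had 2.18% and miR-376a-3p 1.28%, both between DMSO and the inhibitors.

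Short untailed tags differed between the libraries, and for some of the called arms. Untailed tags of 18 to 20 bases made up 10.3% of the eligible untailed count with DMSO, 8.49% with retinoic acid, 4.03% with BIO, 7.24% with CHIR99021, 7.51% with ddH2O and 10.02% with vitamin C. For miR-101b-3p, on chromosome 19, bases 29135338 to 29135356, in an intron of Rcl1, the value was 73.8% with DMSO and 42.3% with BIO. Its A-tailed share by arm was 3.79% and 8.16% in these libraries. On the tailed sequence printed above, however, the share was 8.98% with DMSO and 8.92% with BIO, and 8.41% to 12.6% over all 6 libraries. With untailed parts of 20 bases or more alone, the log2 ratio of the arm for BIO against DMSO was 0.04. Its mean share over the libraries was 5.68%, or 13.5% with that limit and 0.0438% with the main tag alone. For miR-323-3p the mean of 1.03% became 1.99% and 0.0103% under the same settings. For miR-485-5p the most abundant tag at an eligible end, which is not its main tag, gave 1.04% in place of 2.19%. For miR-30d-5p the main tag alone gave 1.96% in place of 3.30%. For miR-323-3p the short tags were 72.1% with DMSO and 46.2% with BIO, and for miR-376a-3p 42.8% and 22.2%. This was not so in each called arm. For miR-485-5p they were 2.24% with DMSO and 2.42% with BIO, and for miR-30d-5p at most 0.0401% in every library. With untailed parts of 20 bases or more, 4 of the 10 BIO calls were kept, 5 of the 9 CHIR99021 calls, 5 of the 6 retinoic acid calls, 2 of the 3 vitamin C calls and 0 of the 3 between the vehicles. The arms were also limited to their most abundant untailed tag at an eligible end. Then 1 BIO call, 2 CHIR99021 calls, 3 retinoic acid calls, 2 vitamin C calls and 0 between the vehicles were kept.

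Each called ratio was separated into the tailed and the untailed level per 1000000 microRNA tags. In the 10 BIO calls the untailed level was lower than with DMSO in 9, the exception being miR-1981-5p, and the tailed level was higher in 8. An arm called higher must have a higher tailed or a lower untailed level, so these counts follow in part from the calling. They were not made over all 143 arms compared. miR-296-3p had 0.591 times the tailed and 0.234 times the untailed level of DMSO. The largest tailed ratio of the 10 was that of miR-181c-5p, with 2.92 times the tailed level and 0.849 times the untailed level. After retinoic acid, miR-708-5p had 0.750 times the tailed and 0.352 times the untailed level, while miR-30d-5p had 2.08 and 1.22 times.

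With vitamin C, 3 of 144 arms were called against ddH2O, or 2.08%, 0.694% higher and 1.39% lower, with a median ratio of 0.968, and 85.4% of arms were within 1.5-fold. miR-674-5p was higher, at 6.43% against 3.39% on 45 and 35 tailed tags. miR-124-3p, a microRNA of neurons, was lower, at 2.07% against 3.41%. miR-341-3p was 2.50-fold lower, at 23.3% (22.5 to 24.1) against 58.1% (56.4 to 59.8). Its A-tailed level was 1266 per 1000000 with vitamin C and 1108 with ddH2O, a ratio of 1.14, whereas the untailed level was 5.23 times as high with vitamin C. On the printed sequence, 2268 tailed and 5914 untailed tags were counted with vitamin C, against 1877 and 580 with ddH2O. The share with vitamin C was the lowest and that with ddH2O the highest of the 6 libraries. The difference lay in the untailed tag. Set against DMSO instead, vitamin C gave 3 calls among 150 arms, 2 upward and 1 downward. Only 1 of the 3 calls made against ddH2O was kept. The log2 ratio of miR-341-3p for vitamin C was -1.32 against ddH2O and -0.616 against DMSO. Between the vehicles the call rate was 2.07%, beside 2.08% here, and miR-341-3p was among the vehicle calls.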

How the data were processed

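The 6 deposited files, 1 per library, list distinct tags with the count and the length of each. The counts are raw numbers of reads per tag as the authors deposited them, and the other value is the tag length of 18 to 44 bases. Per the labels' protocols, total RNA was isolated with TRIzol and libraries were made with an Illumina TruSeq RNA kit. The submitters' processing notes name the mm9 build. Trimming, adapters and filters are not given in the sources used here, so whether adapter bases left after trimming add to the tailed counts was not tested, and the labels say that the raw reads of the BIO library were lost.

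The 1174 Mir hairpins of GENCODE M21 (GRCm38) were searched for exact matches. Coordinates and host genes are from that annotation. The untailed part had 18 to 26 bases. Each arm was set by its most abundant tag, tags starting within 2 bases of it were counted, arms with the same main tag were merged, and tags of several arms were split evenly. Tags matching rRNA, mitochondrial RNA, snoRNA, scaRNA, snRNA or Gm42418 were set aside. An end was eligible when the tag plus A matched no hairpin. As a setting, the main tag alone means the most abundant untailed tag at an eligible end. In some arms this is not the arm's main tag. No genome sequence was given, so members were not searched in the genome, and strain differences between J1 and the reference hairpins were not checked. In GENCODE transcripts, 80 members with a count of 304 were found. Names and mature sequences are from RefSeq where a mature microRNA overlapped the main tag by 15 bases or more, and 944 of the hairpins matched an entry.

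Shares carry 95% Clopper-Pearson intervals. An arm was called at 1.5-fold with separate intervals and 500 or more eligible tags in both libraries. Misreads were counted in tags of 1000 or more counts in a library. With 1 library per group no test between groups was possible. Shares, intervals and calls were tried on simulated tails added to untailed counts drawn from these libraries. The simulation held no misreads, adapter bases or spread between cultures, so it checks the computation only. Python 3.11.15, numpy 2.4.6, pandas 2.3.3 and scipy 1.17.1 were used.

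The members, lists and tests were chosen with earlier results of these data known. Arms named by rule had 1000 or more eligible tags in every library: the 8 with the highest and the 4 with the lowest mean share, the 8 with the largest tailed level, up to 3 called arms per direction and comparison, and the most abundant arm of each of 14 lists, with miR-122-5p and miR-21a-5p at any depth. Other arms in the text were named after their values were seen. The settings varied were other folds and depth limits, centring, unique tags, the main tag alone, the other vehicle, all untailed tags, longer tags and medians over arms. Settings chosen after seeing the data left out members found in GENCODE transcripts, ends at the last hairpin base, miR-6240 with miR-6236, or short tags from the calls, or used the main tag alone for library shares.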

Additional observations from a re-analysis of the deposited data

How the results depend on the processing

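With untailed parts of 20 bases or more, the A-tailed share of a library was 4.825% with DMSO, 4.98% with retinoic acid, 5.229% with BIO, 5.126% with CHIR99021, 5.222% with ddH2O and 4.924% with vitamin C. With all untailed tags of an arm in the denominator it was 3.822%, 3.972%, 4.268%, 4.06%, 4.136% and 3.858% in the same order. With only the most abundant untailed tag of each arm at an eligible end it was 3.899%, 4.177%, 4.134%, 3.97%, 4.209% and 3.95%. The ratio of 5' to 3' arms was 1.064, 1.292, 1.024, 1.141, 1.082 and 1.001 from medians over arms.

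At 2-fold, the calls numbered 1 with retinoic acid, 5 with each GSK3 inhibitor (BIO and CHIR99021), 1 with vitamin C and 1 between the vehicles. From 200 eligible tags on, 5 arms were called for vitamin C and 5 for ddH2O against DMSO, and from 2000 on, 3 for CHIR99021. With only the most abundant tag at an eligible end, 6 arms were called for BIO, 5 for CHIR99021 and 6 for vitamin C. With the other vehicle as control, 0 were called for BIO. With untailed parts of 20 bases or more, 4 were called for BIO and 0 for ddH2O against DMSO. With the main tag alone, the log2 ratio of miR-101b-3p for ddH2O against DMSO turned to -0.96. At that setting its mean share over the libraries was only 0.0438%, so the ratio rests on few tailed counts. The cause of these changes was not tested.

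In all, 38 summary values moved and 53 did not. Among ratios and shares of named arms 1 reversed, 29 lost the call, 28 moved and 214 did neither. No paired analysis was possible because each group has 1 library. Leaving out a replicate was not possible for the same reason. The alternatives that search the genome were not run, since no genome sequence was given. Eligible tags were fewest with retinoic acid, where 112 arms were compared, against 126 to 145 in the other comparisons.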
